A study of Mus musculus with 16 samples.

Results

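Peritoneal macrophages from control mice, left untreated, were described by the expression levels on 4 single-colour arrays, out of 16 arrays in the series. The arrays were taken by their labels and no measured value entered that rule. The choice of these arrays and of the gene lists was made with earlier results of these data known. The cells came from the peritoneum of male BALB/cByJ-Lpin1fld/J mice that the labels give as heterozygotes, so the control cells carry 1 copy of the fld mutation of Lpin1 and are not wild type. They had been plated, selected by adherence and rinsed, and were kept as the untreated arm in medium without serum. The other 3 groups of 4 arrays, LPS-treated control cells (100 ng/ml for 5 h) and cells labelled fld with and without LPS, enter only where the spread between replicates is set beside theirs. The design text names 4 control mice but does not tie arrays to mice, so the spread between the 4 arrays may be in part technical. All 4 arrays shared 1 slide, so differences between slides are not in this spread.

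Macrophages of the peritoneal cavity are resident phagocytes that clear dying cells and microbes, digest what they take up in lysosomes and release complement, chemokines and cytokines. In mice most of them are large peritoneal macrophages, a self-maintaining population that depends on the transcription factor Gata6, beside a smaller population that derives from monocytes. Adherence to plastic enriches macrophages but does not purify them, and B cells and mast cells also live in the cavity.

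The level of a gene is given as log2 of the deposited processed intensity minus the 75th percentile of that array, so a level of 0 is the intensity at the 75th percentile of its spots. The 75th percentile itself lay between 472 and 585.9 intensity units, and 61.7% to 63.6% of spots were well above background by the scanner's flag. Where a gene had several probes, the brightest stood for its level, and the probe well above background on most arrays decided whether the gene was detected. Of 19505 genes, 13239 (67.9%) were well above background on all 4 arrays, 4641 (23.8%) on none, and 866, 377 and 382 on 1, 2 and 3 arrays. The lowest level that passed the flag was between -5.34 and -5.02. Across genes, pairs of arrays correlated at r = 0.985 to 0.993, where genes are not independent replicates. Brightness depends on the probe as well as on the transcript, so ranks order signals and not numbers of transcripts. The number of arrays limits the precision.

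The brightest signals came from genes of translation, iron storage, lysosomes, antigen presentation and secreted defence proteins. Of the 30 brightest genes, 11 were cytosolic ribosomal proteins, 3 were ferritin subunits or a ferritin pseudogene, 3 were MHC class I genes and 5 were secreted antimicrobial or acute phase proteins (groups named after the genes were seen). The lysosomal genes Grn and Ctsl were also among them. The 100 brightest genes held 28.9% to 32.3% of the summed signal of an array. Levels of the 30 ran from 8.38 to 9.86, with a median SD of 0.20, and the gene next in rank, the immunoglobulin heavy chain Ighm, stood at 8.34.

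Apoe, the apolipoprotein that carries lipid out of macrophages, had levels of 9.39, 9.33, 9.24 and 9.06 on replicates 1 to 4 (mean 9.26, SD 0.15, n = 4) and ranked 5. Fth1, the ferritin heavy chain, had levels of 9.58, 9.39, 9.32 and 9.22. Saa3, an acute phase serum amyloid made by macrophages, had levels of 9.27, 9.18, 9.10 and 9.01. The arrays differed by less than 0.5 log2 units for each of these genes, with replicate 1 highest and replicate 4 lowest. Of the 30 brightest genes, 26 were highest on replicate 1 and 27 lowest on replicate 4, against 31.6% and 27.9% of all genes. Slpi, a secreted inhibitor of leukocyte proteases, averaged 9.13 ± 0.18 (SD, n = 4). Grn, the precursor of the lysosomal granulins, averaged 9.04 ± 0.18 (SD, n = 4). Lyz2, the macrophage lysozyme that digests bacterial walls, averaged 9.02 ± 0.15 (SD, n = 4), and its relative Lyz1 averaged 8.77 ± 0.17 (SD, n = 4). Sqstm1, the autophagy receptor p62, averaged 8.79 ± 0.23 (SD, n = 4). Members of near-identical families (lysozymes, serum amyloids, ferritins, class I genes and globins) may share signal, and their split between members was not tested.

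**Figure D1:**
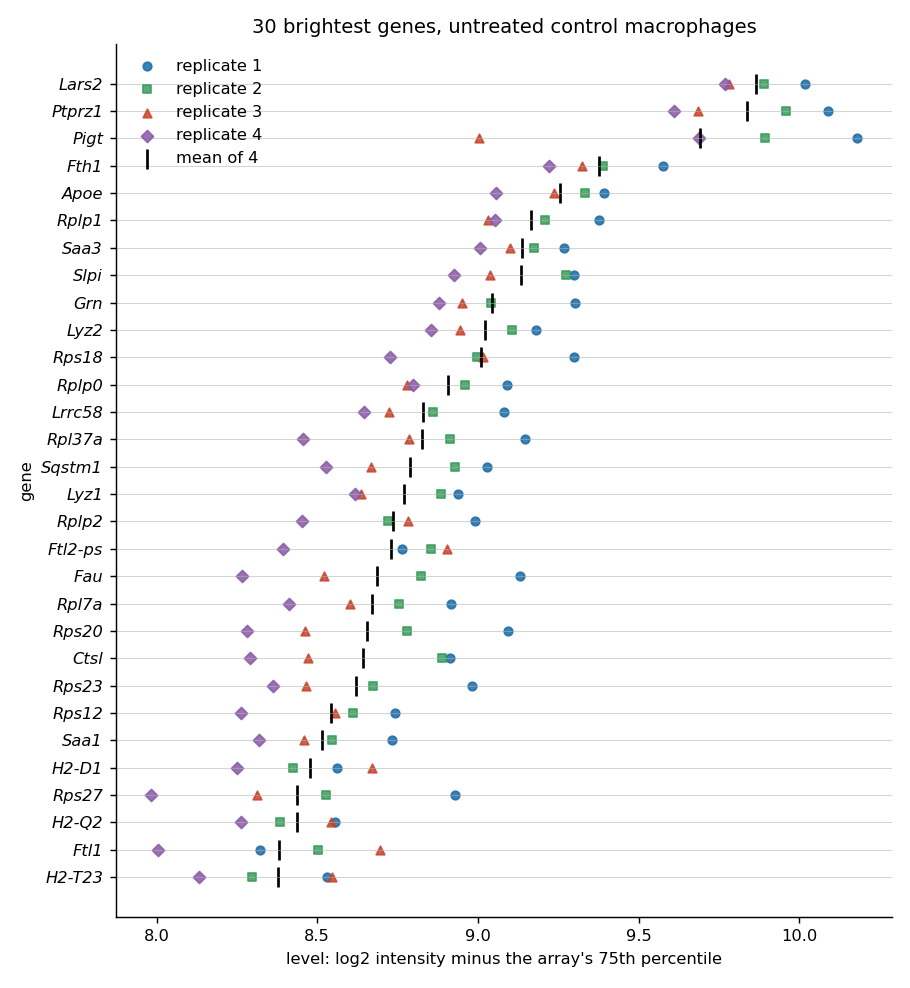
Levels of the 30 brightest genes (log2 intensity minus the 75th percentile of the array) on each of the 4 untreated control arrays, with the mean of 4 as a bar. Replicate 1 is the rightmost point for 26 genes and replicate 4 the leftmost for 27, and Pigt has the highest SD of the 30, 0.50.

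Several of the brightest names rested on 1 probe, which was the only probe of the gene or was not matched by its other probes. Lars2, a mitochondrial leucyl-tRNA synthetase, ranked first at 9.86 ± 0.12 (SD, n = 4) with a single probe (chromosome 9, 123178230 to 123178289 by the array's own annotation, with no build named there). Ptprz1, a receptor tyrosine phosphatase best known from the nervous system, ranked 2 at 9.84, while its other 3 probes averaged -3.19, -6.71 and -7.15. Pigt, a subunit of the enzyme that attaches GPI anchors, ranked 3 at 9.69 with a second probe at -1.99. The array annotation places both Pigt probes on chromosome 17, at 38065479 and 38064637, whereas RefSeq (GRCm38.p6) places Pigt on chromosome 2. Whether either probe measures Pigt was not tested. The probes of Lrrc58 averaged 8.83, 1.45, -3.70 and -3.72. Of the 30 brightest genes, 17 had 1 probe, and in 9 of the 13 with several the probes spanned over 5 log2 units. Over the whole array 2060 of 8672 genes with several probes had 1 probe well above background on all 4 arrays and another on none. Array annotation and RefSeq differed in chromosome for 27 of 19289 genes (0.14%), among them the ferritin pseudogene Ftl2-ps.

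The markers of macrophages were present on every array. Lyz2 and Apoe were among the 10 brightest genes. Csf1r, the receptor for the growth factor that keeps macrophages alive, had levels of 5.51, 5.74, 6.21 and 6.03 (rank 260), and its 3 probes averaged 5.87, 3.81 and -1.21. Cd68, a lysosomal glycoprotein of phagocytes, had levels of 4.97, 5.24, 4.42 and 4.30 (rank 634). The ranges of these levels spanned less than 1 log2 unit for each marker. All 24 genes listed for macrophage lineage and identity were well above background on all 4 arrays, against 67.9% of all genes. Their median level was 4.69, against 0.33 over all genes on all 4 arrays. Cd14, the co-receptor for LPS, averaged 8.04 ± 0.11 (SD, n = 4), and Mpeg1, the pore-forming perforin-2 of phagocytes, was the next brightest of the list. Adgre1, the F4/80 antigen, had levels of 6.91, 6.96, 7.0 and 6.80. Fcgr1, the high-affinity receptor for IgG, had the highest SD of the list, 1.05, with levels of 6.72, 5.97, 4.22 and 5.67.

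Genes of large peritoneal macrophages were also present. Of 20 on the array, 19 were well above background on all 4, against 67.9% of all genes. The retinoic acid receptor Rarb was well above background on 3. Gata6, the factor this population depends on, had levels of 0.91, 1.45, 1.5 and 1.60. Icam2, an adhesion molecule used to sort these cells, averaged 4.01 ± 0.22 (SD, n = 4). Timd4, a receptor for dying cells, averaged 2.08 ± 0.62 (SD, n = 4). Serpinb2, an intracellular inhibitor of plasminogen activators, and F10, coagulation factor X, were the brightest of the list after Saa3 and Slpi. Of 16 genes of small peritoneal macrophages, monocytes and dendritic cells, 14 were on all 4 arrays at a median level of -0.20. The brightest of them were Lyz1, a lysozyme closely related to Lyz2, at 8.77, Plac8 at 5.61, Retnla, a secreted protein of alternatively activated macrophages, at 4.42 and the factor Irf4 at 0.89. Ccr2, the receptor that brings monocytes in, averaged -1.77 ± 0.29 (SD, n = 4), and Clec9a, a receptor of cross-presenting dendritic cells, was well above background on none.

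Receptors for uptake and the lysosome were represented nearly in full, against 67.9% of all genes on all 4 arrays. All 29 phagocytic and scavenger receptors were well above background on all 4 arrays (median level 3.56), led by the C-type lectins Clec4e and Clec4d, the Fc receptor Fcgr3 and the secreted scavenger protein Cd5l. Of 40 lysosomal genes, 38 were on all 4 arrays at a median level of 4.55, led by Grn and the cathepsins Ctsl, Ctsb and Ctss. The osteoclast subunit of the proton pump, Atp6v0d2, was on none. All 35 genes of pattern recognition were on all 4 arrays, at a median level of 1.75. Tlr2, the receptor for bacterial lipoproteins, was the brightest of them after Cd14, with a level of 5.88. Tlr4, the LPS receptor, named after its value was seen, averaged 2.68 ± 0.35 (SD, n = 4).

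Of 25 complement genes, 17 were on all 4 arrays and 7 on none, beside 67.9% and 23.8% of all genes. Cfp, which stabilises the alternative pathway convertase, had levels of 8.01, 7.97, 7.89 and 7.86. C4b and Cfb, parts of the classical and alternative convertases, and C1qa, a chain of the recognition protein C1q, were the next brightest of the list. The genes on none were the inhibitors Cfi and Serping1, the lectin pathway protease Masp1, the terminal components C7, C8a and C9, and Cfd, the protease factor D.

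Of 33 cytokine and growth factor genes, 27 were on all 4 arrays without LPS, beside 67.9% of all genes. Il1b, the precursor of interleukin-1 beta, had levels of 6.35, 6.40, 5.94 and 6.54 and was the brightest of the list. Il1rn, the antagonist of the interleukin-1 receptor, averaged 4.45 with an SD of 1.12. Il6, an acute phase cytokine, had the highest SD of the list, 1.54. Il5, Il12b, Il23a and Il17a were on none. Of 28 chemokines, 23 were on all 4 arrays, led by Pf4, also known from platelets, at 8.28 ± 0.28 (SD, n = 4). Ccl5 and Ccl4, which attract T cells and monocytes, and the eosinophil attractant Ccl24 followed in brightness. Ccl8, Ccl1 and Ccl11 were on none. Of 29 receptors for chemoattractants and cytokines, 27 were on all 4 arrays, led by Csf2ra and Csf1r, and the neutrophil receptor Cxcr2 was on none.

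Lipid genes were mostly detected, beside 67.9% of all genes on all 4 arrays. Of 31 genes of cholesterol, lipoproteins and lipid droplets, 30 were on all 4 arrays at a median level of 3.56. Plin2, the coat protein of lipid droplets, followed Apoe in brightness, and the fatty acid binding protein Fabp5 was on none. Among the lipins, which turn phosphatidate into diacylglycerol, Lpin2 had levels of 2.32, 2.29, 2.42 and 2.48. Lpin1, with 1 allele mutated in these mice, had levels of -1.5, -1.81, -1.44 and -1.30 by its brightest probe. Its other 3 probes averaged -2.40, -3.04 and -3.90, all well above background on all 4 arrays. Lpin3 was well above background on 1 array, replicate 4, at -3.57. Of 26 eicosanoid genes, 23 were on all 4 arrays, led by Alox5ap, which presents arachidonate to 5-lipoxygenase, and the lipase Pla2g7. The prostaglandin receptor Ptger3 was on none.

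Of 28 genes of the oxidative burst, arginine use and iron handling, 27 were on all 4 arrays, beside 67.9% of all genes. Their median level was 4.73. The exception was Nos2, the inducible nitric oxide synthase, which was on none. Arg1, the arginase that uses the same substrate, had levels of 1.51, 3.46, 2.33 and 3.66, the highest SD of the list. All 24 genes of antigen presentation were on all 4 arrays, led by the class I chains H2-D1 and H2-K1, B2m and the class II chain H2-Ab1. All 33 interferon-stimulated genes were on all 4 arrays without treatment, at a median level of 4.0. They were led by the DNA sensor Ifi204, the factor Irf1, the GTPase Igtp and the antiviral enzyme Rsad2. All 22 NF-kB targets and 26 of 27 immediate early genes were on all 4 arrays, led by Nfkbia, the inhibitor of NF-kB, and by Klf2. Of 18 genes of alternative activation, 17 were on all 4 arrays, at a median level of -0.09. Ccl24 and the secreted protein Retnla led that list.

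Lists of general functions were present throughout, beside 67.9% of all genes on all 4 arrays. All 32 ribosomal protein genes, 24 cytoskeletal genes, 32 genes of glycolysis and respiration and 23 stress response genes were on all 4 arrays, at median levels of 7.6, 4.54, 4.59 and 3.73. Of 22 proliferation genes, 20 were on all 4 arrays at a median level of -0.63, led by the replication clamp Pcna, and Bub1 was on 1 array. By gene name, 79 of 80 ribosomal proteins, all 78 mitochondrial ribosomal proteins, 38 of 39 proteasome subunits and all 35 vacuolar sorting proteins were on all 4 arrays.

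**Figure D2:**
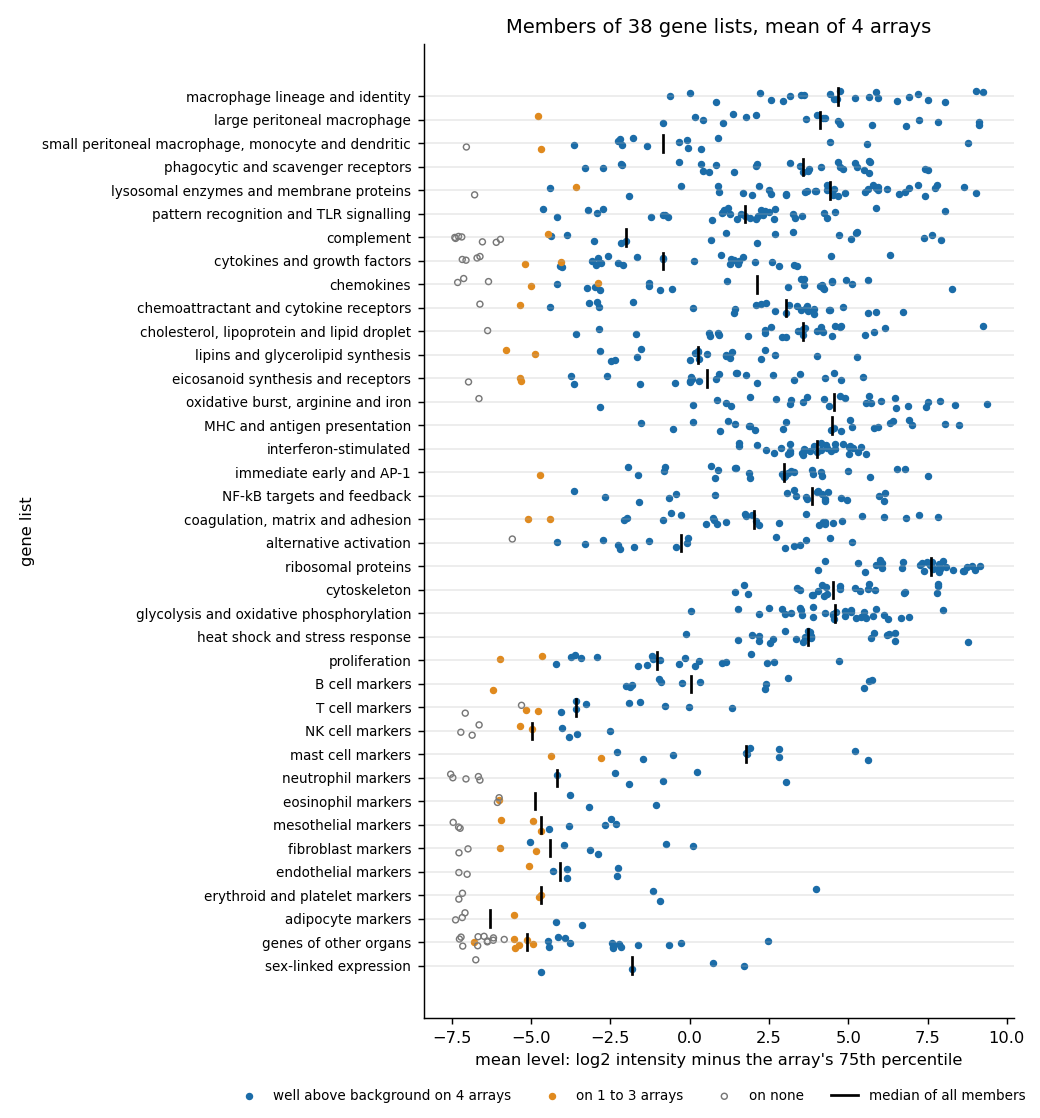
Mean level over the 4 arrays of each member of 38 gene lists, with filled points for members well above background on all 4 arrays or on some, open points for members on none and a bar at the median of all members. The median of the ribosomal protein list lies farthest to the right, and the open points gather below about -5 in lists of other cell types, other organs, complement and cytokines.

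Markers of other cells of the cavity were detected beside those of macrophages. Of 14 B cell genes, 13 were well above background on all 4 arrays, beside 67.9% of all genes. Their median level was 0.33, beside 0.33 over all genes on all 4 arrays, so the members given next are bright ones. Cd79b, a chain of the B cell receptor, had levels of 6.26, 5.41, 6.11 and 5.21, and Ms4a1, the CD20 antigen, had levels of 5.92, 5.17, 6.19 and 5.41. Replicates 1 and 3 were above replicates 2 and 4 for both genes. Of 12 mast cell genes, 10 were on all 4 arrays, with the chymase Cma1 at a mean of 5.22. Fewer cells of a type and less RNA per cell cannot be told apart in such samples.

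Of 13 T cell genes 9 were on all 4 arrays, beside 67.9% of all genes, at a median of -1.90. The kinase Lck at 1.35 and Cd5 at -0.03 were the brightest of them, Cd3e was at -1.57, and Cd8a and Cd28 were on none. Of 9 NK cell genes 4 were on all 4 arrays, and the defining receptor Ncr1 was on none. Of 11 neutrophil genes 6 were on all 4 arrays, with the receptor Csf3r at 3.03 and S100a8 at 0.22. The granule genes Lcn2, Mmp8 and Camp were among the 6, at -1.90, -0.84 and -4.17, and Ltf, Ngp and Elane were on none. Of 6 eosinophil genes 3 were on all 4 arrays, and Epx was on none. Of 11 mesothelial genes 5 were on all 4 arrays, with Msln at -2.47, and Wt1 and Lrrn4 were on none. Of 10 fibroblast genes 5 were on all 4 arrays, led by the collagen-binding Dcn at 0.10. Endothelial genes were on all 4 arrays for 5 of 8, and adipocyte genes for 2 of 6, with Adipoq and Lep on none. The male label was matched by Xist on none of the arrays and the Y-linked Eif2s3y and Ddx3y on all 4.

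Some families made by other tissues held a larger share of genes not well above background on any array than all genes did. Olfactory receptors were on none of the arrays for 522 of 906 genes (57.6%), vomeronasal receptors for 88 of 128 (68.8%), beta-defensins for 20 of 28 (71.4%) and keratin-associated proteins for 22 of 41 (53.7%), against 23.8% of all genes. Of 31 genes typical of other organs, 11 were on none, including Snap25 of neurons, Ckm of muscle and Gfap of astrocytes. Serum albumin, surfactant protein Sftpc and transthyretin were also on none. The flag is not a proof of expression: 242 olfactory receptors (26.7%) were well above background on all 4 arrays, at levels up to 2.78 for Olfr571. In the organ list 14 of 31 genes were on all 4 arrays, with the myelin gene Mbp at 2.48, the sperm protamine Prm1 at -0.26 and thyroglobulin (Tg) at -2.16.

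The spread between the 4 arrays was small for most genes. The median SD was 0.18 log2 units over 13232 genes with a value on all 4 arrays. An SD over 1 was found for 117 genes and an SD over 0.5 for 866. Dim genes varied more: of 4 equal bins of level, the dimmest held 51 of the 117 and the brightest 17. Without replicate 3 the number with an SD over 1 was 59. Irf8, a transcription factor of the myeloid lineage, had levels of 4.41, 4.45, 4.46 and 4.43, an SD of 0.02. The 6 genes with the lowest SD, each at 0.01, were Stau1, Lrif1, 2700049A03Rik, Stt3b, Adamts18 and Fut11.

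**Figure D3:**
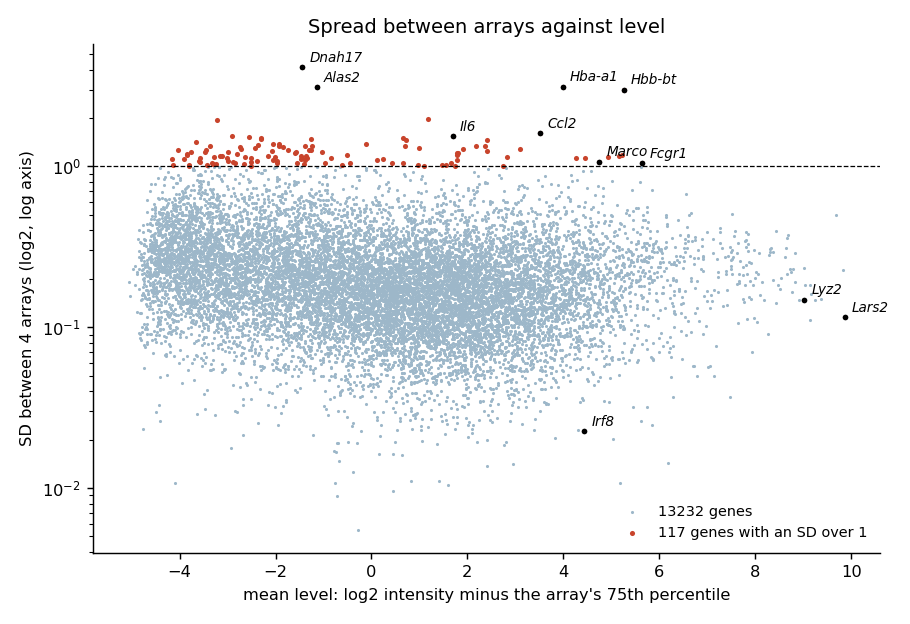
SD between the 4 arrays (log axis) against the mean level for 13232 genes, with genes above an SD of 1 (dashed line) in red. Most genes lie near an SD of 0.18, and 4 genes reach an SD of 3 or more: Dnah17, Hba-a1, Alas2 and Hbb-bt.

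Replicate 3 stood apart from the other arrays. Among the 200 genes with the highest SD it was farthest from the median in 123 (61.5%), low in 90 and high in 33, whereas replicates 1, 2 and 4 were farthest in 37, 11 and 29. With no filter on dim probes replicate 3 was farthest in 51 of the 200 genes whose SD was then highest. Over all genes replicate 3 was farthest in 32.7%. Genes of inflammation were among those low on it. Ccl2, the attractant of monocytes, had levels of 4.64, 4.54, 1.18 and 3.69, and Ccl7, a relative, had levels of 2.75, 2.33, -1.65 and 1.32. Il6 had levels of 2.69, 2.29, -0.60 and 2.40. All of them were lowest on replicate 3 by over 2 log2 units. Ch25h, which makes 25-hydroxycholesterol, had levels of 2.16, 1.0, -1.42 and 0.86. Ccl17, which attracts T cells, had levels of -0.41, -0.33, -3.47 and -0.86. Inhba, a chain of activin, had levels of 3.16, 3.72, 0.40 and 2.36.

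Other genes were high on replicate 3. Marco, a scavenger receptor for bacteria (named after its values were seen), had levels of 3.85, 4.28, 6.30 and 4.57. Cd163, the receptor for haptoglobin and haemoglobin, had levels of -4.37, -3.51, -1.67 and -3.60. Mnd1, a factor of meiotic recombination, had levels of -4.67, -4.20, -0.39 and -3.61. In each case replicate 3 was above the other 3 arrays.

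The chemokine list as a whole was 0.71 log2 units lower on replicate 3 than the mean of the other arrays, with 13 of 23 members lowest there. The cytokine list was 0.47 lower. The mast cell list was lower by 1.97, with list means of 2.16, 2.29, 0.29 and 2.34 and 9 of 10 members lowest on replicate 3, against 26.4% of all genes. Cma1 had levels of 5.79, 5.86, 3.44 and 5.79 and Cpa3, the mast cell carboxypeptidase, had levels of 2.44, 2.70, -0.01 and 2.48. The receptor for stem cell factor, Kit, had levels of -0.32, 0.23, -2.22 and 0.26. Replicate 3 was below the other arrays for each of these genes while the other arrays lay close together. The lineage and identity list of macrophages differed by -0.11 on the same array. Whether the mast cell content had a part in the chemokine and cytokine values was not tested.

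Replicate 1 was marked by interferon-stimulated genes. All 33 members of that list were highest on it, against 31.6% of all genes. List means were 4.70, 3.75, 3.42 and 3.75, so that replicate 1 was 1.06 log2 units above the mean of the others, and 0.93 after quantile normalization. Cxcl10, a chemokine for activated T cells, had levels of 4.84, 2.97, 1.73 and 2.82. Rsad2, the antiviral enzyme viperin, had levels of 6.71, 5.26, 3.97 and 4.67. Ifit2, a protein that binds viral RNA, had levels of 3.05, 1.33, 0.83 and 1.0, and Cmpk2, a mitochondrial nucleotide kinase, had levels of 3.70, 2.47, 1.42 and 2.09. Replicate 1 was at least 1 log2 unit above every other array for Cxcl10, Rsad2, Ifit2 and Cmpk2. Ifit2 and Cmpk2 stood outside the rule for named genes. The gap was under 1 log2 unit for Ifi204, at 6.32, 5.58, 5.03 and 5.33. It was also under 1 for Irf1, at 5.79, 5.09, 5.46 and 5.31, and for Igtp, at 6.08, 5.09, 4.96 and 5.11. Of the 33 genes, 26 were lowest on replicate 3, against 26.4% of all genes. Ifnb1, the gene of interferon beta (named after its values were seen), had levels of -1.29, -2.40, -3.74 and -3.79.

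The ribosomal protein list was also highest on replicate 1, in 30 of 32 members, and lowest on replicate 4, in 29. Over all genes these shares were 31.6% and 27.9%. Its list means were 7.55, 7.31, 7.16 and 6.92. The distance of replicate 1 from the mean of the others, 0.42, was 0.18 after quantile normalization.

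Interferon-stimulated genes are switched on through the factor ISGF3, which binds the interferon-stimulated response element in promoters. The 250 bases before the start of Cxcl10, Rsad2, Ifit2 and Cmpk2 were searched for the letters GAAANNGAA of that element, or the reverse TTCNNTTTC. They are shown for Cxcl10 and Rsad2 because these held a match, whereas Ifit2 and Cmpk2 did not. The match is in capitals (RefSeq, GRCm38.p6, read 5′ to 3′ on the strand of the gene). Cxcl10 is at chr5:92348890-92349139 on the minus strand and Rsad2 at chr12:26456453-26456702 on the minus strand.
Cxcl10: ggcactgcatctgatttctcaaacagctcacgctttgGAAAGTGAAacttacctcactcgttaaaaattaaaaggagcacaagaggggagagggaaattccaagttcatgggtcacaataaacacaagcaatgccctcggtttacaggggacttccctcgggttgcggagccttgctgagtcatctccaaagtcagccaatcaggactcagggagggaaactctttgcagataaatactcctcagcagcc
Rsad2: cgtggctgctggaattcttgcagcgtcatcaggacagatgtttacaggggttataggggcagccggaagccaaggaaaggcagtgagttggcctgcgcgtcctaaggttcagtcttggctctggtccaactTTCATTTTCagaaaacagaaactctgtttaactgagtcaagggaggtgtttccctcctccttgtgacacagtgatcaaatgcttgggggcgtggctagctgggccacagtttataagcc
The match began 213 bases before the start in Cxcl10 and 119 in Rsad2. Of the 33 list genes, 24 had an entry in the promoter table, and 13 of them (54.2%) held a match in this window, against 7.16% of 27025 genes. The list is of a gene class switched on through this element, so the share describes the list and not the spread between arrays. Ifit2 and Cmpk2 held none at their first listed start. A match describes letters and not a bound site.

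Genes of red blood cells varied more than nearly all others. Hba-a1, an alpha globin, had levels of -0.01, 3.09, 5.85 and 7.0. Hbb-bt, a beta globin, had levels of 1.37, 4.52, 7.02 and 8.14. Alas2, the first enzyme of haem synthesis in red cells, had levels of -4.82, -2.47, 0.65 and 2.07. For all of these genes replicate 1 was lowest and replicate 4 highest. The 4 probes of Hbb-bt had SDs of 2.63, 3.0, 3.15 and 3.05, and both probes of Hba-a1 had SDs over 3. The platelet gene Gp9 was on none, Itga2b and Gp1ba on 3, and Ppbp on all 4. The means of the 3 genes of that list on all 4 arrays (Hba-a1, Alas2 and Ppbp) were -2.19, 0.10, 2.03 and 2.63. Replicate 4 was 2.65 above the mean of the others, and 1.56 without replicate 1.

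GATA factors drive genes of both red cells and mast cells. Of the sites they bind, only the form AGATAA or the reverse TTATCT was searched for. The same window is shown for Alas2 (chrX:150547167-150547416, plus strand) and Cpa3 (chr3:20242182-20242431, minus strand), which held a match and had a high SD, with the match in capitals.
Alas2: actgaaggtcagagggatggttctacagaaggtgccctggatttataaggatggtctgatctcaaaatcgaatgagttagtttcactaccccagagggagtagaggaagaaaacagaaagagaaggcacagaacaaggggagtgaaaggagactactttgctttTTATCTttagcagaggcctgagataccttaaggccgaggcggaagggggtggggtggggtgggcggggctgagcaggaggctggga
Cpa3: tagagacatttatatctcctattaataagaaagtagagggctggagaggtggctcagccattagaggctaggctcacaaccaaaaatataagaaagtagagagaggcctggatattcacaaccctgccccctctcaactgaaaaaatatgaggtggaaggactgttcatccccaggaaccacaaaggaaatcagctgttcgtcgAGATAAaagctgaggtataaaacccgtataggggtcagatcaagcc
The match began 86 bases before the start in Alas2 and 46 in Cpa3. In all, 4 of 10 mast cell genes (40.0%) and 1 of 6 erythroid and platelet genes (16.7%) with an entry held one, against 10.3% of 27025 genes. These shares describe the lists and not the spread between arrays. Hba-a1 held no match to these letters in this window, though the window holds the related letters tgataa, a form that was not counted.

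**Figure D4:**
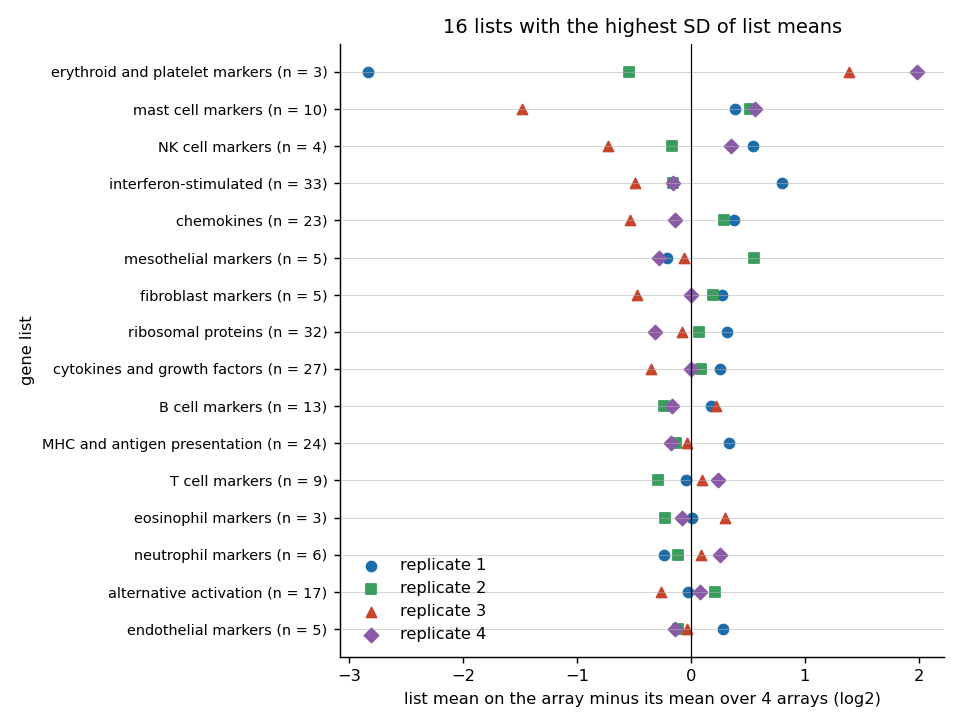
Mean of each gene list on an array minus its mean over the 4 arrays (log2), for the 16 lists with the highest SD of list means, with n the members well above background on all 4 arrays. Within the mast cell row replicate 3 stands alone on the left, and within the interferon row replicate 1 on the right. The erythroid and platelet list spans the widest range.

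Some genes divided the arrays into pairs. Dnah17, a dynein heavy chain of cilia, had the highest SD of all, 4.15, with levels of 1.97, 2.31, -5.20 and -4.86. The low values on replicates 3 and 4 lay near the lowest passing levels there, -5.34 and -5.02. Its other probes had SDs of 1.57 and 1.23 and were well above background on 2 and 3 arrays. The first had levels of -4.46, -4.42, -7.27 and -7.05. The second did not divide the arrays in this way, with levels of -5.10, -4.33, -5.08 and -7.19. Of the 117 genes with an SD over 1, and by a gap of over 1 log2 unit, 16 genes were high on replicates 1 and 2, 14 on replicates 2 and 3 and 6 on replicates 3 and 4. Those high on replicates 2 and 3 included Creb3l3, a liver-type transcription factor, at -1.23, 0.47, 1.55 and -1.25, and the oxidase Duox2 at -2.06, -0.70, 0.39 and -2.56.

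**Figure D5:**
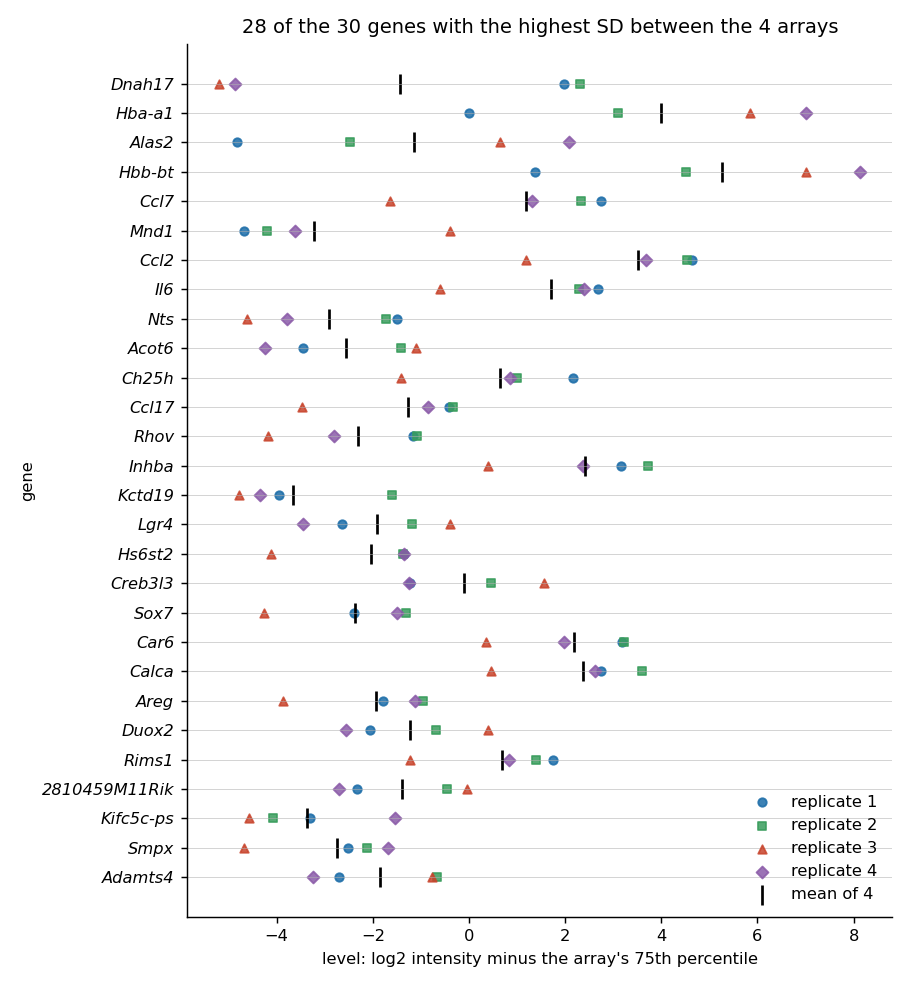
Levels on each of the 4 arrays for 28 of the 30 genes with the highest SD, with the mean as a bar. Triangles of replicate 3 lie at the far left for the chemokines Ccl7, Ccl2 and Ccl17 and for Il6, while the globins and Alas2 run from replicate 1 to replicate 4.

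The same genes were looked up in the other 3 groups, each on a slide of its own. Of the 30 genes with the highest SD, 6 had an SD over 1 in LPS-treated control cells, 16 in untreated and 8 in LPS-treated cells labelled fld. Over all genes, an SD over 1 was found for 0.884% in the untreated control group and for 0.295%, 0.695% and 1.67% in those groups. Hba-a1 had SDs of 3.91, 2.30 and 4.18 there, whereas Ccl2 had SDs of 0.68, 0.84 and 0.44. Dnah17 had SDs of 3.87, 3.77 and 0.27. The 30 genes were chosen for their spread in the untreated control group, so lower values elsewhere are a description only.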

How the data were processed

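Labelled RNA (Cy3) of each sample was hybridised to 1 Agilent array (design 014868), and per the file headers the authors read it with Feature Extraction 9.5.1.1. The deposited scanner files hold the processed intensity, background-subtracted, of 43379 spots that are not controls. The deposited value table, a ratio of intensity to the median of the array, served as an alternative. Spots flagged as outliers were set to missing, spots of a probe averaged, log2 taken and the 75th percentile of each array subtracted. Of 41174 probes, 32719 were named through RefSeq's table (GRCm38.p6, names only) and 8455 stood outside the gene counts. SDs are over 4 arrays, with no test. Named genes are the 30 brightest, the 30 with the highest and 6 with the lowest SD, the markers, the lipins, and of each list up to 4 brightest members, up to 3 on no array and the one with the highest SD. The arrays and lists were chosen with earlier results of these data known. Python 3.11.15 was used throughout, and limma 3.58.1 in R 4.3.3 for an alternative background correction (normexp, offset 50). The code was tested on simulated data. Other settings were median and quantile scaling, flags kept, another detection flag, the median over probes, other filters and leaving out each array. The single-gene results of some list members are left out of the text and plots.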

Additional observations from a re-analysis of the deposited data

Results flagged for a closer look

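In 14 of 238 named genes and 1 of 38 gene lists, 1 array lay far outside the other 3, by Dixon's ratio of the gap to the nearest array over the whole range. Chance alone gives about 1 in 20, and over all 13232 genes 654 (4.94%) met the same criterion. Replicate 3 was the array in 13 of the 15. The named genes include those chosen for a high SD, where replicate 3 was most often farthest, so this count is not separate support. The mast cell list mean is also made in part of the mast cell genes named here. Of the mast cell genes, Cma1 was low on replicate 3 at 3.44, Cpa3 at -0.01, Mcpt4 at 1.11 and Tpsb2 at 0.03, against lowest values on the other arrays of 5.79, 2.44, 3.28 and 2.20, and the list mean was 0.29 against at least 2.16. Ctsg, a protease of granules, was at -1.57 there against 0.01 or more. Of the inflammatory genes, Il6 was at -0.60 and Ccl17 at -3.47 on replicate 3, against lowest values elsewhere of 2.29 and -0.86. Of the lymphocyte genes, Cd3e was at -1.77 and Fcer2a at -2.22 on replicate 3, both within 1 log2 unit of the other arrays. Hs6st2, a heparan sulphate enzyme, was at -4.12 on replicate 3, against -1.38 or more elsewhere. Jund was at 6.37 on replicate 3 against 6.59 to 6.62 elsewhere, a small difference (SD 0.12). Nqo1, a quinone reductase, was high on replicate 3 at 2.55, against at most 1.23. Igtp was high on replicate 1 at 6.08 and Top2a, a replication enzyme, on replicate 2 at -2.31.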

How the results depend on the processing

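The count of genes on none of the arrays was 1845 with the scanner's positive and significant flag in place of well above background. With the median over the probes of a gene, 19 of the 30 brightest genes stayed among the 30, against 28 to 30 under the other settings. The number of genes with an SD over 1 was 36 with normexp, 241 with genes well above background on at least 2 arrays and 729 with no filter. Leaving out 1 array gave 59 to 154, with the lowest without replicate 3. Replicate 3 was farthest in 51 of the 200 highest-SD genes with no filter on dim probes. The differences of 6 lists between arrays kept their direction under every scaling, background, flag and probe setting and without each other array. No paired analysis was possible because the arrays belong to 1 group and no comparison was tested. A removal of spots with a local background flag was chosen after seeing the data and left 29 of the 30 brightest genes. Only 4 arrays on 1 slide bear on each SD, probe brightness sets the ranks, and near the lowest passing level a difference cannot be measured.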
